A study of Arabidopsis thaliana with 12 samples.

Results

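Roots held at the acid pH of 4.5 were compared after 8 h and after 1 h, to describe what rose and fell while they stayed in the acid solution. The comparison uses 6 of the 12 arrays of the series, the 3 labelled pH 4.5, 8 h against the 3 labelled pH 4.5, 1 h, chosen by these labels and by no measured value. All 22746 probe sets that are not array controls were tested. The plants were Arabidopsis thaliana of the accession Col-0 (Columbia), at a labelled stage of 3.90 weeks, with no mutation or transgene named in the labels. They were sown on 0.7% agarose and moved to non-sterile hydroponics at 23 °C, with a phosphate stock at pH 5.6 in the nutrient solution. The groups used here are roots at pH 4.5 for 8 h, roots at pH 4.5 for 1 h, and, for a test of the difference, roots at pH 6 for 8 h and roots at pH 6 for 1 h, with 3 arrays each. No roots from before the treatment were among them. What pH the plants grew at beforehand and at what hour they were sampled is not in the labels, and 8 h in the solution and 7 further hours of the day cannot be told apart at pH 4.5 alone.

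Acid growth is a classic idea of plant physiology. Protons in the cell wall activate expansins, which loosen the contacts between wall polymers, and xyloglucan endotransglucosylase/hydrolases (XTHs) cut and rejoin xyloglucan, a polymer that ties cellulose fibres together. Receptor kinases such as THESEUS1 and FERONIA sense the state of the wall at the cell surface. External acid is also a stress for root cells, which spend metabolic energy to pump protons out and so keep the cytoplasm near neutral.

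The values are MAS5 array signals, fluorescence summaries on a linear scale. The median signal of an array lay between 38.4 and 40.01 at pH 4.5, 8 h and between 38.2 and 38.3 at pH 4.5, 1 h. At pH 6 it was 38.4 to 39.6 at 8 h and 39.9 to 40.2 at 1 h, so the groups at 1 h did not overlap. Arrays within a group had Pearson correlations of 0.973 to 0.987 over the probe sets, which do not count as replicates, and an 8 h and a 1 h array at pH 4.5 had 0.962 to 0.970. The ratio of 3′ to 5′ signal of control genes, a gauge of RNA integrity, was 15.3 to 20.8 for actin on the 8 h arrays and 18.2 to 21.1 on the 1 h arrays. For ubiquitin it was 2.24 to 2.37 at 8 h and 2.02 to 2.47 at 1 h, and for GAPDH 1.39 to 1.499 at 8 h and 1.25 to 1.47 at 1 h. The groups at pH 4.5 overlapped for each control. At pH 6 actin gave 14.4 to 19.9 at 8 h and 10.0 to 17.0 at 1 h, and the latter lay below every array at pH 4.5, 1 h. For ubiquitin and GAPDH the pHs overlapped at each hour. The part of RNA integrity in the results was not tested. The root β-glucosidase PYK10 had signals of 3611 to 4245 at 8 h and 2842 to 3583 at 1 h, far above the array medians. Of the lists of root markers, 3 of 15 root hair genes, 1 of 18 endodermal and vascular genes and 1 of 14 transporter genes had a named probe set, so the labelled tissue could be checked on few genes. Of the root hair genes, EXPA18 and GH9C1 did not pass the test. EXPA7 fell by 0.54 on the log2 scale (adjusted p = 0.0305), a call lost without replicate 1 of pH 4.5, 8 h (adjusted p = 0.0540), without its replicate 3 (0.139) and without replicate 2 of pH 4.5, 1 h (0.146). The endodermal and vascular marker with a probe set, XTH20, did not pass. The transporter marker, AT2G16980, had 45.9, 40.9 and 29.8 at 8 h against 70.0, 73.2 and 53.4 at 1 h. It fell by 0.70 (adjusted p = 0.00997), a call lost without replicate 2 of pH 4.5, 1 h (0.0508). Nothing in the labels says that replicates came from separate cultures, so the p-values rest on a spread between arrays that could be technical alone.

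Over the 7 hours, 1831 probe sets rose and 1624 fell at an adjusted p of 0.05 (limma, Benjamini-Hochberg), 15.2% of those tested. The rises were 8.05% and the falls 7.14%, and the median log2 difference of all probe sets was 0.01. A change of at least 2-fold was passed by 3.89% of the probe sets, 408 that rose (1.79%) and 477 that fell (2.10%). The 3 arrays of one group all lay above the 3 of the other for 7049 probe sets, 31.0% of those tested. Folds and log2 differences here are those of log2(signal + 4), which understates the change of dim probe sets. The standard error of a log2 difference had a median of 0.18 over probe sets. Of the 3455 probe sets that passed, 1730 had no gene name in the annotation used. Of the 13286 genes with a name, counted on 1 probe set each, 915 rose (6.89%) and 804 fell (6.05%). Among the 1535 with a symbol, 152 rose (9.90%) and 125 fell (8.14%), and the counts of gene lists below are to be read against these shares. Lists of gene families and pathways hold only genes with a symbol. The 11751 genes named by a locus code alone, and probe sets without a name, are not counted in them, so these are not counts of whole families. In whole roots, fewer cells of a type and less RNA per cell cannot be told apart.

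Among the steepest rises were genes of carbon metabolism. Isocitrate lyase (ICL, AT3G21720), the entry enzyme of the glyoxylate cycle, by which plants turn fat-derived acetate into sugar precursors, had signals of 149.9, 164 and 133 at pH 4.5, 8 h, against 10.5, 1.28 and 1.32 at pH 4.5, 1 h. It was bright on each 8 h array and low on each 1 h array, though replicate 1 at 1 h lay above the others. Its log2 difference was 4.36 ± 0.36 (standard error, 20.6-fold, adjusted p = 8.62e-07). Pyruvate, phosphate dikinase (PPDK), which makes phosphoenolpyruvate from pyruvate, had 189.8, 172 and 236 at 8 h against 28.7, 30.2 and 35.1 at 1 h. The groups did not overlap, and the log2 difference was 2.52 ± 0.26 (adjusted p = 6.36e-06). Formate dehydrogenase (FDH), a mitochondrial enzyme that oxidises formate to carbon dioxide, gave 105, 99.8 and 92.8 at 8 h against 32.4, 33.2 and 28.6 at 1 h, a log2 difference of 1.54 ± 0.18 (adjusted p = 2.28e-05). The 12 measured genes of acetyl-CoA and glyoxylate metabolism did not move as a group. In all 3 rose and 1 fell, and the median log2 difference was -0.05. The gene that fell was SDP1, a lipase of oil bodies (log2 difference -0.53, adjusted p = 0.00817). Among 17 genes of the TCA cycle and the alternative NADH dehydrogenases, 1 rose and 0 fell, and the rise was lost without replicate 1 or 3 of pH 4.5, 8 h or replicate 1 of pH 4.5, 1 h.

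**Figure D1:**
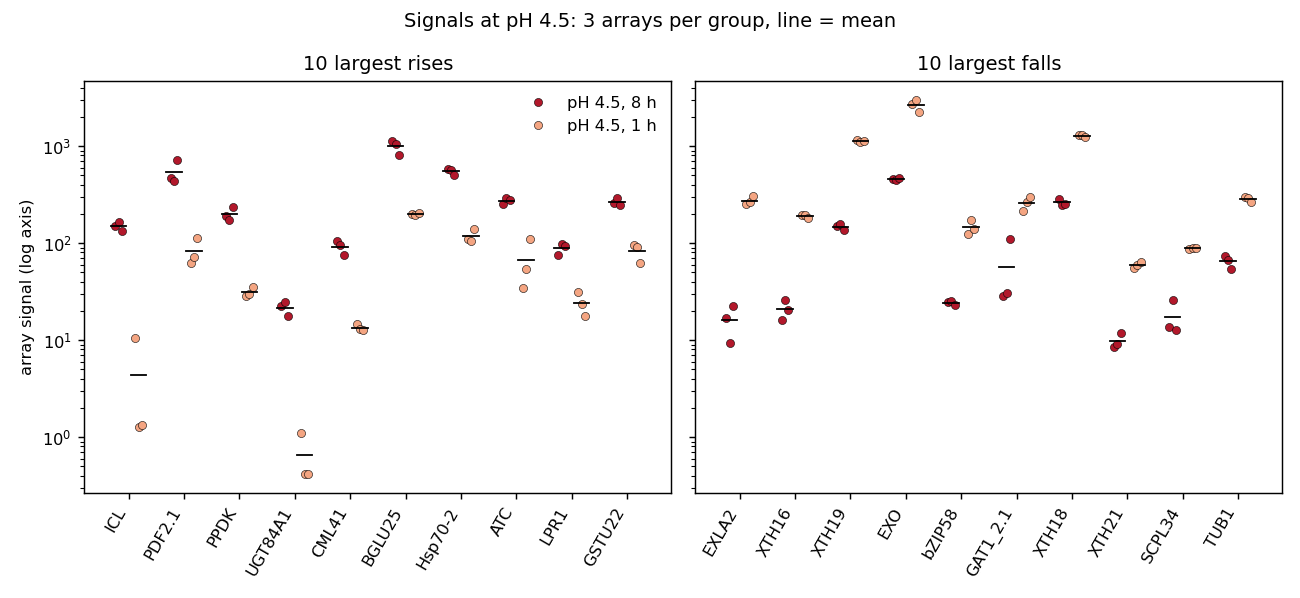
Array signals on a log axis for the 10 genes with a symbol that rose most (left) and the 10 that fell most (right) at pH 4.5. Dark points are the 3 arrays at 8 h, light points the 3 arrays at 1 h, and each line is a group mean. ICL has signals of 133 to 164 at 8 h and of 1.28 to 10.5 at 1 h, and EXLA2 shows the opposite order, with 9.25 to 22.3 at 8 h and 253 to 304 at 1 h.

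The largest rise of any named gene was that of AT3G60420, which the annotation gives by its locus code alone. Its signals were 845, 725 and 630.3 at pH 4.5, 8 h, against 8.82, 18.1 and 3.07 at pH 4.5, 1 h, a log2 difference of 5.86 ± 0.37 (58.1-fold, adjusted p = 6.04e-08). On the 1 h arrays it lay below the median signal and on the 8 h arrays far above it. AT1G71140 had 68.7, 61.3 and 71.6 at 8 h against 0.946, 0.839 and 3.66 at 1 h (log2 difference 3.65 ± 0.32). AT2G41380 had 290.4, 294 and 319 at 8 h against 28.1, 33.1 and 21.2 at 1 h (3.29 ± 0.19), and AT3G47480 had 245, 217 and 188 against 29.8, 16.4 and 18.2 (3.14 ± 0.26). The next of these genes, AT3G28510, AT2G23910 and AT1G51840, had log2 differences of 3.07, 2.85 and 2.83. No role is given here for genes known by a locus code.

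Genes that build and remodel the cell wall were among those that fell most. Expansin-like A2 (EXLA2), of a family related to the expansins, had signals of 16.9, 9.25 and 22.3 at pH 4.5, 8 h, against 253, 268 and 304 at pH 4.5, 1 h. Each 1 h array was far brighter than any 8 h array, and the log2 difference was -3.84 ± 0.23 (14.3-fold lower, adjusted p = 3.49e-08). EXLA1 fell by 1.74 and EXLA3 by 1.45 on the log2 scale. The measured expansins and expansin-like genes with a symbol were 18 in number, of which 5 rose and 4 fell, with a median log2 difference of 0.04. The fourth gene that fell was EXPA7, with the calls lost as given above. EXPA8 rose most, with 20.1 ± 3.85 at 8 h and 5.29 ± 4.70 at 1 h (SD, n = 3 each; log2 difference 1.48 ± 0.34), and its 1 h signal was dim.

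Of the 10 XTH genes with a symbol that were measured, 5 fell and 0 rose, and the median log2 difference of the 10 was -0.46. The 5 falls became 4 without replicate 2 or 3 of pH 4.5, 8 h or replicate 1 or 3 of pH 4.5, 1 h. XTH19 had 150.3, 156 and 137 at pH 4.5, 8 h, against 1151, 1097 and 1127 at pH 4.5, 1 h, a log2 difference of -2.90 ± 0.14 (adjusted p = 5.18e-09). XTH18, a close relative in sequence, had 288, 247 and 254 at 8 h against 1301, 1294 and 1227 at 1 h (-2.26 ± 0.10). XTH16 had 15.97, 25.6 and 20.4 at 8 h against 193, 193 and 181 at 1 h (-2.99 ± 0.15). In each of these genes the spread within a group was small beside the gap between groups. XTH21 fell by 2.20, while XTH20 had a log2 difference of -0.26 that did not pass (adjusted p = 0.309).

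Single members of other wall families fell. CSLC04, a synthase of the glucan backbone of xyloglucan, had 153, 157 and 134 at 8 h against 561, 529.5 and 517 at 1 h (log2 difference -1.83 ± 0.12, adjusted p = 9.89e-08). The pectin methylesterase ATPMEPCRB, of a family that removes methyl groups from pectin, had 172, 178 and 165 at 8 h against 749, 701 and 622 at 1 h (-1.98 ± 0.11). EXORDIUM (EXO), a growth gene induced by brassinosteroid hormones, had 463, 446 and 474 at 8 h against 2725, 3006 and 2262 at 1 h (-2.51 ± 0.12). All 3 genes were lower on each 8 h array than on any 1 h array. Among genes with a symbol, CSLC04 was the 1 of 8 cellulose synthase-like genes that passed and ATPMEPCRB the 1 of 4 pectin methylesterases. Of 4 SKU5-type genes, which code for copper-oxidase-like wall proteins, 3 fell, led by sks15 (-1.37 ± 0.10) and sks16 (-1.01 ± 0.12). The third, SKU5 itself, lost its call without replicate 1 of pH 4.5, 8 h (adjusted p = 0.0527) and without replicate 1 of pH 4.5, 1 h (0.0657).

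The remaining wall lists were mixed. Among 15 endoglucanases of family GH9, 2 rose and 4 fell, and the 2 rises became 1 without replicate 1 or 2 of pH 4.5, 8 h or replicate 2 of pH 4.5, 1 h. GH9C3 fell by 1.33 and GH9B13 by 0.74 on the log2 scale. Among 22 TBL genes, a family of wall acetylation, 1 rose and 5 fell. The 5 falls became 2 without replicate 1 of pH 4.5, 8 h, and 3 without its replicate 2 or without replicate 2 or 3 of pH 4.5, 1 h. TBL39 fell by 0.56 (adjusted p = 0.000741) and TBL30 rose by 1.05 (0.00154). Among 11 subtilase genes, which code for wall proteases, 1 rose and 0 fell.

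Receptors of the wall and the cytoskeleton changed in the same interval. THESEUS1 (THE1) had 88.6, 75.2 and 68.0 at pH 4.5, 8 h, against 283, 267 and 263 at pH 4.5, 1 h, a log2 difference of -1.77 ± 0.10 (adjusted p = 1.46e-08). FERONIA (FER), a receptor of RALF peptides, had 523, 430.3 and 459 at 8 h against 814, 686 and 851 at 1 h (-0.73 ± 0.14, adjusted p = 0.00154). Both were lower on every 8 h array. Of 11 wall-sensing and growth receptor genes, 2 rose (1 without replicate 1 or 2 of pH 4.5, 8 h or replicate 1 of pH 4.5, 1 h) and 3 fell, and of 16 RALF and CLE peptide genes 1 rose and 0 fell. The tubulin TUB1 had 74.4, 67.5 and 54.4 at 8 h against 299, 295 and 266 at 1 h (-2.07 ± 0.14, adjusted p = 1.63e-07), and TUB5 fell by 1.35. TUB9 had a rise of 0.26 whose call was lost without replicate 2 of pH 4.5, 8 h (adjusted p = 0.0831) and without replicate 3 of pH 4.5, 1 h (0.0638). The 4 other tubulins with a symbol did not pass.

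**Figure D2:**
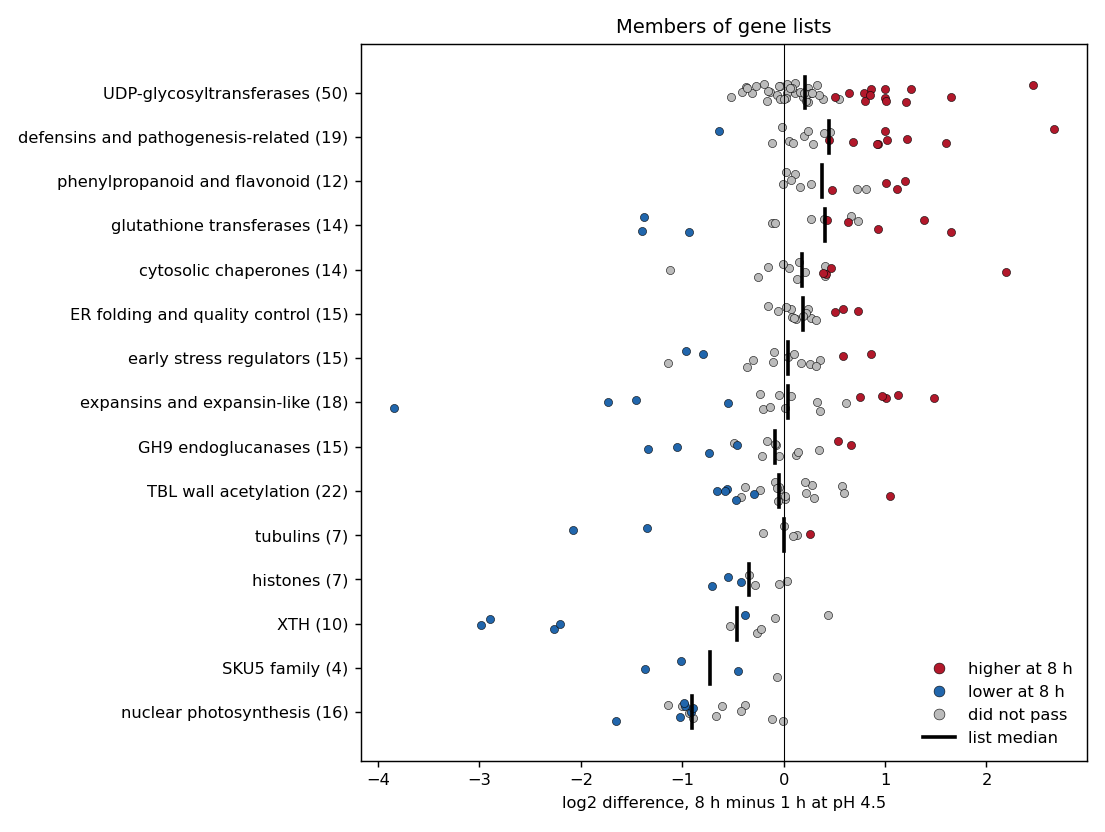
Log2 difference, 8 h minus 1 h at pH 4.5, of each measured member of 15 gene lists, with the number of members in brackets. Red points rose, blue points fell, grey points did not pass the adjusted p of 0.05, and the black line is the list median. The UDP-glycosyltransferases hold 13 red and 0 blue points, and the XTH genes 5 blue and 0 red.

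Part of the genes of defence and of the tailoring of small molecules rose. Of 50 UDP-glycosyltransferases, enzymes that attach sugars to hormones, phenolics and foreign compounds, 13 rose and 0 fell, and the median log2 difference was 0.21. The 13 rises became 9 without replicate 2 of pH 4.5, 8 h or replicate 2 of pH 4.5, 1 h. Both group means were dim for 18 of the 50. UGT87A2 had 104, 102 and 99.9 at pH 4.5, 8 h, against 33.2, 27.1 and 29.7 at pH 4.5, 1 h (1.65 ± 0.18, adjusted p = 1.51e-05). UGT84A1, which makes glucose esters of hydroxycinnamic acids, had 22.4, 24.7 and 17.8 at 8 h and was near the lowest values on the array at 1 h, with 1.11, 0.417 and 0.421 (2.46 ± 0.22). UGT73D1 had 144, 133 and 164 at 8 h against 64.7, 53.3 and 59.4 at 1 h (1.26 ± 0.24). No group of the 3 genes overlapped with the other.

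Of 19 defensin and pathogenesis-related genes, 9 rose and 1 fell, with a median log2 difference of 0.45. The 9 rises became 6 without replicate 2 of pH 4.5, 1 h. Both group means were dim for 10 of the 19, and the median was 0.21 to 0.92 over the settings run. The defensin gene PDF2.1 had 471, 435 and 714 at pH 4.5, 8 h, against 62.4, 71.6 and 112 at pH 4.5, 1 h (2.67 ± 0.27, adjusted p = 6.43e-06). The chitinase-family gene CHI (AT2G43570) had 686, 693 and 770.2 at 8 h against 257, 275 and 179.6 at 1 h (1.5996 ± 0.15). OSM34, an osmotin-like protein of the PR-5 family, had 1142, 1036 and 1365 at 8 h against 614, 504 and 645 at 1 h (1.00 ± 0.14). Both groups were bright for OSM34 and did not overlap. LCR67 passed with a log2 difference of 1.22, although both of its group means were dim, 6.44 at 8 h and 0.407 at 1 h.

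BGLU25, a β-glucosidase, had signals of 1134, 1052 and 802 at pH 4.5, 8 h, against 199.8, 196 and 204 at pH 4.5, 1 h (2.28 ± 0.11, adjusted p = 3.76e-09). It was the 1 of 22 β-glucosidases that rose, while 3 fell. The 3 falls became 1 without replicate 1 of pH 4.5, 8 h or without replicate 1 or 2 of pH 4.5, 1 h. Glutathione transferases, which detoxify reactive compounds, split into 5 of 14 that rose and 3 that fell, with 3 in place of 5 rises without replicate 2 of pH 4.5, 8 h. GSTU22 had 258, 292 and 245 at 8 h against 95.5, 90.4 and 62.6 at 1 h (1.65 ± 0.18), and GSTU20 rose by 1.38. GSTU26 had 85.6, 113 and 91.5 at 8 h against 271, 269.8 and 241 at 1 h (-1.40 ± 0.13), and ATGSTF13 fell by 1.38. Of 12 phenylpropanoid and flavonoid genes 4 rose and 0 fell, and both group means were dim for 6 of the 12. CHIL, a chalcone isomerase-like protein, rose by 1.20, the methyltransferase gene CCOAMT by 1.12 and HCT, an enzyme on the way to lignin, by 0.48. LAC16 rose by 1.01. Its call was lost, and the 4 rises became 3, without replicate 1 or 3 of pH 4.5, 8 h or replicate 1 or 2 of pH 4.5, 1 h.

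Some chaperone and calcium sensor genes changed. The chaperone gene Hsp70-2 had 579.9, 564 and 504 at pH 4.5, 8 h, against 109, 106 and 138 at pH 4.5, 1 h (2.19 ± 0.11, adjusted p = 7.45e-09). Among 14 cytosolic chaperone genes 4 rose and 0 fell, but the other 3 rises were of 0.38 to 0.47. The 4 rises became 1 without replicate 3 of pH 4.5, 1 h, and 2 without its replicate 1 or without replicate 1 of pH 4.5, 8 h. Of 15 genes of protein folding and quality control in the endoplasmic reticulum, 3 rose and 0 fell, with ATERDJ3B, a co-chaperone, at 0.58 ± 0.07. Of 7 calmodulin-like calcium sensors, 2 rose, 1 fell and 4 did not pass, with a median log2 difference near 0. CML41 had 105, 94.8 and 75.9 at 8 h against 14.6, 13.1 and 12.6 at 1 h (2.45 ± 0.21), and CML43 rose by 1.22. CML38 fell, with 68.4, 77.7 and 63.3 at 8 h against 236, 191 and 205 at 1 h (-1.54 ± 0.27). AT1G76640, for which the annotation lists the synonym CML39, is named by its locus code and lies outside the list of 7. It had 0.569, 1.26 and 4.55 at 8 h against 77.1, 84.5 and 67.2 at 1 h (-3.76 ± 0.32, adjusted p = 1.11e-06). So it lay at the floor at 8 h and had clear signal at 1 h.

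Early stress regulators that rose were 2 of 15, and 2 fell, with a median log2 difference of 0.05. With 9.90% of all genes with a symbol rising and 8.14% falling, counts this small are not read as a movement of the list. WRKY53, a transcription factor of defence and senescence, had 136, 132 and 116 at pH 4.5, 8 h, against 75.5, 63.7 and 67.1 at pH 4.5, 1 h (0.86 ± 0.10, adjusted p = 3.68e-05). STZ, a zinc-finger repressor induced by many stresses, had 224, 191 and 200.5 at 8 h against 379.7, 401 and 428 at 1 h (-0.96 ± 0.13, adjusted p = 0.000124). The receptor-like kinase gene BIK1, which acts in immune signalling, rose by 0.59, and the ubiquitin ligase gene PUB23 fell by 0.79. Each group of arrays stood apart for these 4 genes. The transcription factor bZIP58 fell by 2.38, and LPR1, a ferroxidase of the root response to low phosphate, rose by 1.74 ± 0.19 (88.6 ± 11.3 at 8 h and 24.2 ± 7.00 at 1 h, SD, n = 3 each).

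Among 22 auxin genes 3 rose and 2 fell. LBD29, a transcription factor of lateral root formation, had 57.5, 80.4 and 43.5 at pH 4.5, 8 h, against 22.5, 27.0 and 25.7 at pH 4.5, 1 h (1.11 ± 0.24, adjusted p = 0.00449). PUCHI, which also acts there, had 45.2, 48.4 and 41.3 at 8 h against 19.8, 23.1 and 19.1 at 1 h (0.99 ± 0.18), and WES1, an enzyme that conjugates auxin to amino acids, rose by 0.98 ± 0.11. The groups did not overlap for these 3 genes. The 2 falls became 0 without replicate 1 of pH 4.5, 8 h or replicate 3 of pH 4.5, 1 h, and 1 without any other array of the comparison. Of 7 histone genes 3 fell and 0 rose. HTB4 fell by 0.55 and HON4 by 0.70, and the third, HTB1, lost its call without replicate 3 of pH 4.5, 1 h (adjusted p = 0.0548). Of 19 genes of mitosis 0 rose and 1 fell, a fall that held without replicate 2 of pH 4.5, 1 h and was lost without any other array of the comparison. None of 12 genes of RNA polymerases I and III and ribosome assembly passed, nor any of 12 ubiquitin proteases (limma; members at an unadjusted p under 0.05 were 1 and 1).

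Of 10 genes of purine and amide nitrogen recycling, 2 rose and 2 fell. FAC1, an AMP deaminase, rose by 0.72 ± 0.09, and DELTA-OAT, which links ornithine to glutamate and proline, by 0.79 ± 0.14. ALN, allantoinase of purine breakdown, fell by 0.55, a call lost without replicate 1 of pH 4.5, 8 h (adjusted p = 0.0505) or replicate 1 of pH 4.5, 1 h (0.0594). Of 11 genes of branched-chain amino acid breakdown and electron transfer, 2 rose and 1 fell. IVD, a dehydrogenase of leucine breakdown, had 141, 129.6 and 174 at pH 4.5, 8 h, against 108, 92.7 and 99.7 at pH 4.5, 1 h (0.54 ± 0.12). MCCA, a carboxylase subunit of the same pathway, had 119, 112 and 214 at 8 h against 215, 234 and 229 at 1 h. It fell by 0.66 (adjusted p = 0.0216), and the call was lost without replicate 1 (0.101) or 2 (0.117) of pH 4.5, 8 h and without replicate 2 (0.0707) or 3 (0.0600) of pH 4.5, 1 h. GAT1_2.1, the other gene of the nitrogen list that fell, of a glutamine amidotransferase family, had 28.5, 30.7 and 111 at 8 h against 214, 262 and 296 at 1 h (-2.35 ± 0.57, adjusted p = 0.0108). Replicate 3 of the 8 h arrays was well above the other two, and the call was lost without replicate 1 of pH 4.5, 8 h (0.0539) and without its replicate 2 (0.0556). From a list of 20 genes of the acid and proton response, AT1G51340 was the 1 gene with a named probe set. It had 43.3, 47.9 and 38.7 at 8 h against 15.8, 15.3 and 12.6 at 1 h (1.35 ± 0.27, adjusted p = 0.00258).

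Of 13 genes of light, day and clock, 3 rose and 2 fell. The 3 rises became 1 without replicate 3 of pH 4.5, 8 h, and the 2 falls 1 without its replicate 2 or 3 or without replicate 1 or 2 of pH 4.5, 1 h. TIC, 1 of the 2 that fell, did so by 0.36 (limma, adjusted p = 0.0418). Its call was lost without any single array at pH 4.5 (adjusted p of 0.0583 to 0.152). GIGANTEA (GI), a clock gene, had 151, 175 and 169 at pH 4.5, 8 h, against 359.8, 380.0 and 349 at pH 4.5, 1 h (-1.12 ± 0.08, adjusted p = 3.08e-07). At pH 6 it had 145, 122 and 139 at 8 h against 355, 359.7 and 351 at 1 h, and the difference between the changes at the pHs, 0.25, did not pass (adjusted p = 0.240). COR27, a cold-regulated gene of the clock list, had 32.9, 32.9 and 38.3 at pH 4.5, 8 h against 17.1, 23.0 and 18.2 at pH 4.5, 1 h. It rose by 0.73 at pH 4.5 and by 1.80 at pH 6, and the changes differed by -1.07 (adjusted p = 0.0188). Its call at pH 4.5 was lost without replicate 3 of pH 4.5, 8 h (0.0638) and without replicate 1 (0.0646) or 3 (0.0518) of pH 4.5, 1 h. HYH, a transcription factor of light responses, rose by 0.72 at pH 4.5 and by 0.94 at pH 6, and the call at pH 4.5 was lost without replicate 3 of pH 4.5, 8 h (0.0681). CCL, the third gene that rose, is described below with pH 6. Of 16 nuclear genes of photosynthesis, which mark green tissue, 6 fell and 0 rose, with a median log2 difference of -0.90, and 4 were dim in both groups. At pH 6 also 6 fell and 0 rose, where 5.33% of all probe sets rose and 6.76% fell. For 0 of the 16 did the changes at the pHs differ past the threshold (limma, with 1 at an unadjusted p under 0.05). The summed signal of the 16 was 202 to 225 on the arrays at pH 4.5, 8 h and 386 to 519 on those at pH 4.5, 1 h. None was listed at 0. The photosystem antenna gene LHCB4.2 had 0.639, 0.693 and 1.44 at 8 h against 12.9, 8.82 and 13.1 at 1 h. Of 43 plastid-encoded genes 1 rose and 0 fell. The count was 0 without replicate 3 of pH 4.5, 8 h, 5 without replicate 1 of pH 4.5, 1 h and 3 without its replicate 3. The part of green tissue, light and the hour of the day in the other results was not tested.

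The same 7 hours at pH 6, measured on 6 other arrays, gave 1213 probe sets that rose (5.33%) and 1538 that fell (6.76%), 12.1% together. Of the 1831 rises at pH 4.5, 395 were also rises at pH 6, which is 21.6% of the rises at pH 4.5 and 32.6% of those at pH 6. Of the 1624 falls, 467 were also falls at pH 6, which is 28.8% of the falls at pH 4.5 and 30.4% of those at pH 6. Another 225 rises at pH 4.5 were falls at pH 6, and 149 falls were rises. Across probe sets, which share arrays and background and are not independent, the changes at the pHs correlated at 0.16. The difference between the changes passed for 2145 probe sets (9.43%), 1165 with the larger value at pH 4.5 (5.12%) and 980 with the smaller (4.31%). It passed with the larger rise at pH 4.5 for 742 of the 1831 rises and with the deeper fall for 684 of the 1624 falls.

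**Figure D3:**
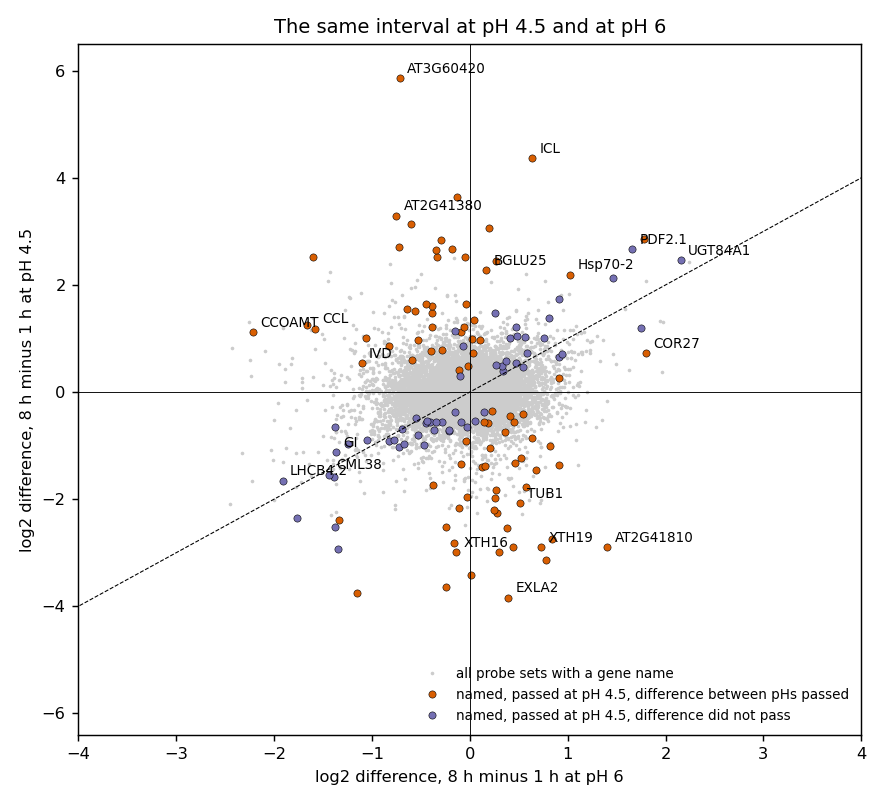
Log2 difference, 8 h minus 1 h, at pH 4.5 (vertical axis) against that at pH 6 (horizontal axis) for every probe set with a gene name (grey). Coloured points are named genes that passed at pH 4.5, orange where the difference between the pHs also passed and violet where it did not, and the dashed line marks equal changes. AT3G60420 and EXLA2 lie far from the line at 5.86 and -3.84 on the vertical axis, and GI and UGT84A1 lie near it.

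Some wall genes were among those whose change differed between the pHs. The difference of the log2 changes, pH 4.5 minus pH 6, was -4.24 ± 0.33 for EXLA2 (adjusted p = 8.18e-07), -3.63 ± 0.20 for XTH19 and -2.34 ± 0.14 for THE1. EXLA2 had 24.1 ± 5.96 at pH 6, 8 h and 17.3 ± 3.18 at pH 6, 1 h (SD, n = 3 each), close to its 16.1 ± 6.55 at pH 4.5, 8 h, so pH 4.5, 1 h was the group that stood out. EXO likewise had 173 ± 23.4 at pH 6, 8 h and 206 ± 27.3 at pH 6, 1 h, below both groups at pH 4.5. TUB1 and the sks genes stood out the other way. TUB1 had 444 ± 70.1 at pH 6, 8 h and 312 ± 57.0 at pH 6, 1 h, against which 65.5 ± 10.2 at pH 4.5, 8 h was the low group. The gene sks15 had 305 ± 15.4 at pH 6, 8 h and 160 ± 5.36 at pH 6, 1 h, and fell at pH 4.5 while it rose at pH 6. The XTH genes did not share 1 pattern. XTH18 had a mean of 1274 at pH 4.5, 1 h, but 397 at pH 6, 8 h and 328 at pH 6, 1 h. XTH16 and XTH21 were instead low at pH 4.5, 8 h, with means of 20.7 and 9.88. At pH 6, XTH16 had 132 at 8 h and 145 at 1 h, and XTH21 had 76.2 and 63.2. In the XTH list the difference passed for 4 of 10 genes, each with the lower value at pH 4.5, and in the SKU5-type list for 3 of 4. It passed for 5 of 18 expansins and expansin-like genes, 4 below 0 and 1 above, for 4 of 15 GH9 endoglucanases, 3 of 22 TBL genes, 1 of 4 pectin methylesterases, 1 of 8 cellulose synthase-like genes and 0 of 11 subtilases (1 at an unadjusted p under 0.05), against 10.5% of the genes with a symbol.

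**Figure D4:**
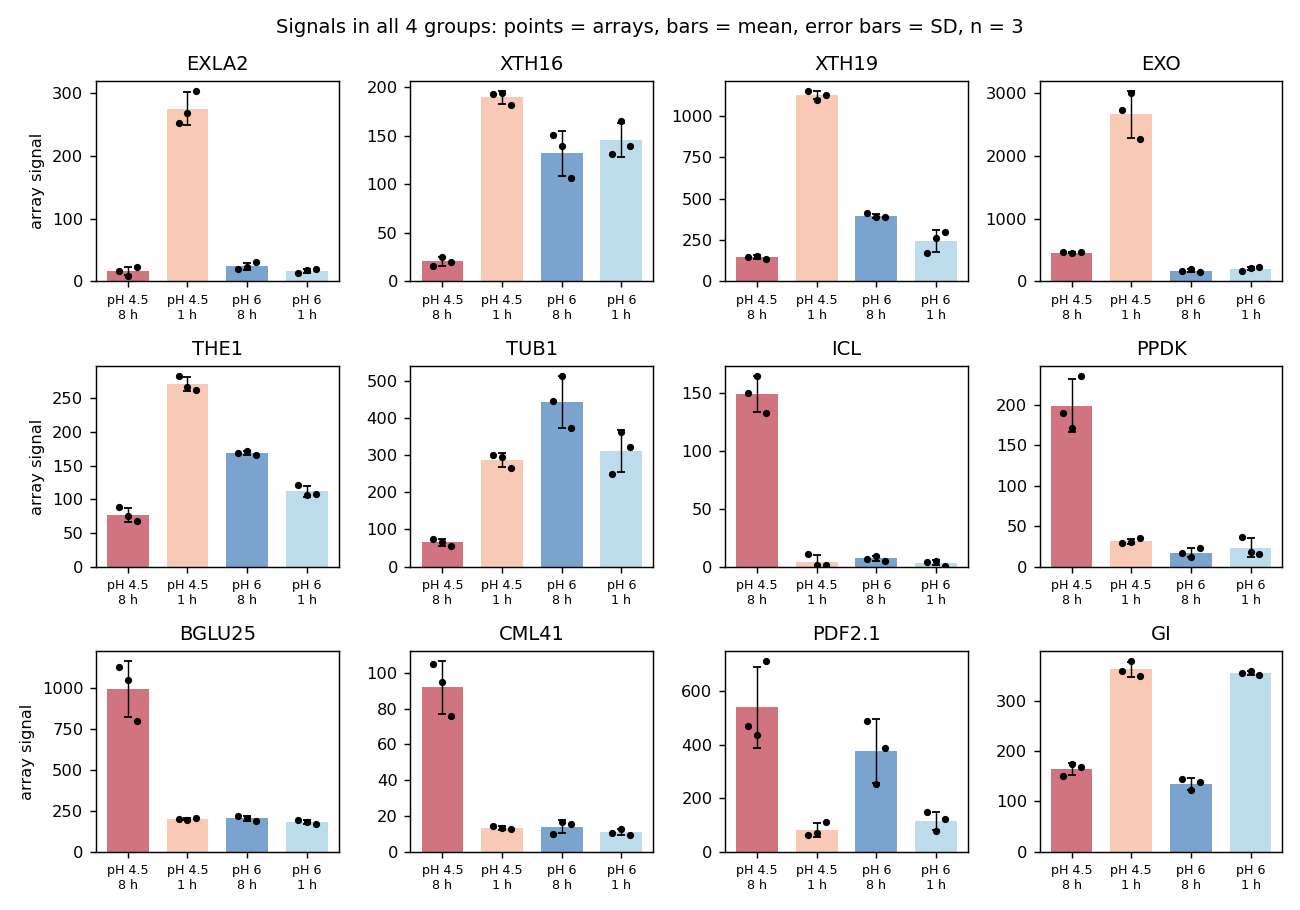
Array signals on linear axes that start at 0 for 12 genes in the 4 groups, in the order pH 4.5, 8 h, pH 4.5, 1 h, pH 6, 8 h and pH 6, 1 h. Points are arrays, bars are means and error bars are the SD (n = 3). EXLA2, XTH19 and EXO are high at pH 4.5, 1 h, ICL, PPDK, BGLU25 and CML41 at pH 4.5, 8 h, and GI is low at 8 h at both pHs.

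Among the rises, ICL had a difference of 3.73 ± 0.51 between the pHs (adjusted p = 0.000205), with 7.195 ± 2.22 at pH 6, 8 h and 3.37 ± 2.24 at pH 6, 1 h (SD, n = 3 each). BGLU25 (2.11 ± 0.15), CML41 (2.19 ± 0.29), PPDK (2.85 ± 0.36) and Hsp70-2 (1.17 ± 0.16) passed as well, and Hsp70-2 rose at pH 6 too, by 1.03. PDF2.1 and UGT84A1 did not pass. PDF2.1 had 490.1, 253 and 389 at pH 6, 8 h against 147, 79.3 and 121 at pH 6, 1 h. CCOAMT, OSM34, WRKY53, BIK1 and IVD rose at pH 4.5 and fell at pH 6, with differences of 3.33, 2.06, 1.69, 1.18 and 1.64. CCL, a gene of the clock list, had 32.6, 29.9 and 47.4 at pH 4.5, 8 h against 13.3, 13.4 and 14.05 at pH 4.5, 1 h, and 14.3, 17.5 and 15.1 at pH 6, 8 h against 70.3, 50.3 and 45.9 at pH 6, 1 h. It rose in the first pair and fell in the second (difference 2.77 ± 0.29, adjusted p = 1.46e-05). Among the early stress regulators 0 rose and 8 of 15 fell at pH 6, where 5.33% of all probe sets rose and 6.76% fell. The share among genes with a symbol was not counted at pH 6. The difference passed for 4 of the 15, each with the higher value at pH 4.5, against 10.5% of the genes with a symbol.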

How the data were processed

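Total RNA of roots was measured on 12 Affymetrix ATH1 arrays, 1 for each sample, after 3′ IVT biotin labelling, per the labels. The deposited signal intensities are linear. The submitters' processing notes name MAS5 and GCOS as the tools of the authors, and versions are not given in the sources used here. On each array the mean signal without the highest and lowest 2% was 100.0, so a change is relative to the other probe sets of the array. The number of arrays, 3 in each group, limits the precision.

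The 22746 probe sets that are not controls were analysed as log2(signal + 4) with no filter. A model with a mean for each of the 4 groups was fitted to the 12 arrays in limma 3.58.1 under R 4.3.3 with an intensity trend, which leaves 8 residual degrees of freedom. The contrasts were 8 h minus 1 h at pH 4.5, the same at pH 6, and the difference between them. P-values are two-sided and adjusted by the Benjamini-Hochberg method over all probe sets, with a threshold of 0.05. The method was tested on simulated data with 22746 features. Differences of each size were set in 100 features drawn from the brighter probe sets alone, with independent normal noise. Of log2 differences of 1 it found 87% at pH 4.5 and 53% in the difference between the pHs, and of differences of 0.5 it found 31% and 7%. False calls were 8 and 3. These shares do not cover dim probe sets, and far more probe sets passed in the data than were changed in the simulation.

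Names came from the probe table and the RefSeq gene table of TAIR10.1. They cover 13436 probe sets and 13286 genes, and 503 probe sets that match several genes were not named. A gene with several probe sets is given by the one with the highest mean signal. A group mean under 11.1, the 30th percentile of the mean signals, is called dim.

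Named genes are the 15 largest differences in each direction among genes that passed and whose arrays do not overlap, the 6 largest in each direction for the difference between the pHs, up to 4 members of each list with at least 3 that passed, and the marker and clock genes. The 15 largest in each direction among genes with a symbol were added once the annotation had been seen. PYK10, ATG8D and LTI30 lie outside the rule and were chosen after their values were seen. The members and lists were chosen with earlier results of these data known. Lists defined by words of gene descriptions could not be applied, because the gene table holds none, and were replaced by lists of symbols. The planned comparison of promoter motifs was not run, and no sequence was used here. Alternatives were other constants, a filter on dim probe sets, centring, quantile normalization, a fit on the 6 arrays at pH 4.5, a replicate block, no intensity trend, and each array left out. Python 3.11.15 with pandas 2.3.3, numpy 2.4.6 and matplotlib 3.10.9 made the tables and figures.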

Additional observations from a re-analysis of the deposited data

Results flagged for a closer look

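The results given here stand out because the change between 8 h and 1 h at pH 4.5 differed from the change at pH 6 in a limma test of the difference itself, which passed for 2145 probe sets. Among genes with a name, the largest differences of the log2 changes, pH 4.5 minus pH 6, were 6.57 for AT3G60420, 4.12 for AT5G52720, 4.04 for AT2G41380, 3.78 for AT1G71140, 3.75 for AT3G47480 and 3.73 for ICL, isocitrate lyase. Below 0 they were -4.30 for AT2G41810, -4.24 for EXLA2, -3.92 for AT3G19430, -3.63 for XTH19, -3.59 for AT4G25250 and -3.43 for AT4G22460.

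AT2G41810 had 1.22, 0.564 and 1.66 at pH 4.5, 8 h against 29.9, 31.4 and 42.6 at pH 4.5, 1 h, and 168, 160.0 and 146 at pH 6, 8 h against 55.8, 53.9 and 61.6 at pH 6, 1 h. Its arrays at pH 4.5, 8 h were the dim ones, and it fell at pH 4.5 and rose at pH 6. AT3G19430 and AT4G25250 did the same, with log2 differences of -3.14 and -2.75 at pH 4.5 and of 0.78 and 0.84 at pH 6. AT4G22460 had 10.7 ± 7.06 at pH 4.5, 8 h and 138 ± 13.9 at pH 4.5, 1 h (SD, n = 3 each), and a log2 difference of 0.01 at pH 6. AT5G52720 rose by 2.52 at pH 4.5 and fell by 1.599 at pH 6 on the log2 scale.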

How the results depend on the processing

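The count of probe sets that changed at pH 4.5, 3455, lay between 2893 (no intensity trend) and 3790 (filter on dim probe sets) with all 12 arrays or with the 6 at pH 4.5. It was 2543 to 2916 without a single array at pH 4.5 and 3335 to 3671 without one at pH 6. The count for the difference from pH 6, 2145, lay between 1601 (no intensity trend) and 2477 (filter), and between 1694 and 2076 without single arrays. The fit on 6 arrays gives no value for it. With arrays centred on their medians, 47.8% of the calls were higher at 8 h against 53.0% as reported, and 44.8% of the differences from pH 6 lay above 0 against 54.3%. Of the 162 named genes 141 passed, and 0 of these turned their sign in the settings run. Of those that did not pass, 6 did, EXPA18 and GH9C1 among them. Up to 11 lost their call with all arrays of the comparison kept, and 12 to 18 without a single array at pH 4.5. Of 54 lists, 14 had a median that changed sign over the settings, among them the tubulins and the calmodulin-like genes. Of the 108 list counts, 2 to 18 moved by over 1.5 times with all arrays kept, most without an intensity trend, and 15 to 22 did without a single array at pH 4.5. The replicate block gave 3515 and 2259 probe sets. Deviations of arrays with the same number correlated at -0.0498 to 0.0700. These values cannot show whether samples with the same number shared a culture or a batch, which the labels do not give. Of the named genes 38 had a dim group mean at pH 4.5, and there the log2 difference depends on the constant added.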

Other observations

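Among 29 carboxypeptidase-like genes, 4 rose and 4 fell at pH 4.5, and the 4 rises became 1 without replicate 1 of pH 4.5, 8 h. SCPL34 had 13.7, 26.0 and 12.6 at pH 4.5, 8 h against 87.9, 88.4 and 89.0 at pH 4.5, 1 h, a log2 difference of -2.16 ± 0.19 (limma, adjusted p = 1.38e-06). Its arrays did not overlap, and the change differed from that at pH 6 by -2.05. The gene scpl40 fell by 1.23 at pH 4.5 and rose by 0.52 at pH 6, while scpl33 fell at both, by 1.58 and by 1.39.

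Autophagy genes, which serve the breakdown of cell contents in the vacuole, numbered 10. At pH 4.5 1 rose and 0 fell. At pH 6 0 rose and 3 fell, where 5.33% of all probe sets rose and 6.76% fell. The difference passed for 4, each with the higher value at pH 4.5, against 10.5% of the genes with a symbol. The one that rose, ATG8D, of the ATG8 proteins that coat autophagic membranes, did so by 0.71 ± 0.08. In the cold and dehydration list 3 of 16 rose and 4 fell at pH 4.5, and the 4 falls became 2 without replicate 2 of pH 4.5, 8 h or replicate 2 or 3 of pH 4.5, 1 h. LTI30, a dehydrin, fell by 0.53 at pH 4.5 and by 2.00 at pH 6, a difference of 1.48. Of 24 cytochrome P450 genes 2 rose and 1 fell. CYP71B6 rose by 0.97 ± 0.09 at pH 4.5 and fell by 0.53 at pH 6.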
